A study of Mus musculus with 9 samples.

Results

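The genes described here are 40 members of the interferon system: 4 receptor chains, Stat2 with 7 interferon regulatory factors (IRFs), and 28 genes that interferons are known to switch on. They were chosen by name from the 27179 genes of the deposited count table. All 40 were found and all 40 were among the 15910 genes with enough reads to test. They were measured by RNA sequencing in luminal epithelial cells sorted from adult mouse mammary gland, in 3 populations with 3 libraries each. The labels call the populations HR- LP, HR+ LP and ML, without spelling out these letters. HR- LP cells were sorted as CD14+ and negative for PR-cre/YFP, a fluorescent reporter. HR+ LP cells were CD14+ and positive for PR-cre/YFP. Whether YFP marks present or past activity of the Cre is not stated. ML cells were CD14-, and their sample labels give them as PR-cre/YFP positive whereas the series' design text gives them as negative. All cells were also negative for a lineage (Lin) marker set that is not listed. Strain, exact age, any treatment and the number of animals behind each library are not stated in the sources used here, so p-values measure the spread between these libraries, which may be technical.

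Interferons are secreted proteins that warn cells of infection. Type I interferons bind the receptor chains IFNAR1 and IFNAR2, and interferon-gamma binds IFNGR1 and IFNGR2. The type I receptor activates STAT2, which joins IRF9 on a DNA element called the interferon-stimulated response element and switches on antiviral genes, while the interferon-gamma receptor acts through gamma-activated sites. Many of these genes are also transcribed at a low level without infection, and IRF1, IRF3 and IRF7 can bind similar elements.

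Library depth ran from 27219103 to 108119756 counts, and the 40 members together held 0.0865% to 0.146% of each library's counts. Levels are given as CPM, counts scaled to a common library size by the trimmed mean of M-values (TMM). The labelled populations were checked against marker genes: summed over 6 genes, luminal keratin, Epcam and claudin levels were 11740 to 15710 CPM in every library. Within that sum, Krt19 was higher and Epcam, Cldn3 and Cldn7 were lower in both HR+ LP and ML than in HR- LP (edgeR). Hormone-sensing markers (Pgr, Esr1, Prlr and Foxa1) summed to 173 to 410.2 CPM in HR- LP, 4558 to 5534 in HR+ LP and 6509 to 9016 in ML. Progenitor markers, among them Kit and the sort marker Cd14, summed to 4136 to 4753, 1384 to 1431 and 61.8 to 102 CPM. Immune markers were close to 0: 15 genes summed to 2.53 to 3.69 CPM in HR- LP, 1.51 to 3.09 in HR+ LP and 2.08 to 2.73 in ML, and the plasmacytoid dendritic cell marker Siglech had 0 counts in all 9 libraries. Basal markers, 6 genes, summed to 23.6 to 57.9, 21.6 to 33.9 and 21.5 to 32.7 CPM in the same order. Against HR- LP, Krt14 was lower in HR+ LP and ML, and in ML Oxtr was lower and Krt5 higher (edgeR). Endothelial markers, 6 genes, summed to 5.59 to 6.79, 2.69 to 6.33 and 4.92 to 6.38 CPM, with 0 called.

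The interferon genes did not move as a block. Relative to HR- LP, HR+ LP cells had higher Stat2, Irf1, Irf8, Usp18, Isg20, Oas2, Oas3, Ifi35, Bst2 and Dtx3l, and lower Ifnar2, Irf7, Ifit2, Ifih1, Cmpk2 and Samd9l. These are 10 members higher and 6 lower of 40 by edgeR's quasi-likelihood F-test with Benjamini-Hochberg adjustment over all tested genes at 0.05. Unless another tool is named, a gene is said to be called, higher or lower by this test over all 9 libraries. The members called made up 40% of the 40, against 29.9% of all tested genes (17.2% higher and 12.8% lower). Between ML and HR+ LP, 3 members were lower in ML (Ifit2, Cmpk2 and Samd9l) and 0 were higher, or 7.5% called against 6.79% of all genes (0.0943% higher and 6.7% lower). At an unadjusted p below 0.05 the higher count was 3, and at an adjusted p below 0.05 DESeq2 called 2 higher and limma voom 1. Between ML and HR- LP, 14 members were higher and 10 lower, or 60% against 44.6% of all genes (23.3% higher and 21.3% lower). There DESeq2 called 14 higher and 13 lower, and limma voom 12 and 11. The edgeR lower count fell to 6 without ML replicate 2. The median log2 fold change of the members was 0.18, 0.02 and 0.18 in these comparisons, against 0.01, 0.01 and 0.03 over all genes. The 3 comparisons share their libraries in pairs, so their counts are not separate evidence. In bulk libraries, fewer cells that transcribe a gene and less RNA per cell cannot be told apart.

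By mean CPM, 19 members were highest in ML and lowest in HR- LP, and 17 were highest in HR- LP and lowest in ML. The share of all tested genes in each order was not computed, so these counts are not read as particular to the members. Ifnar1, Ifngr2 and Irf2 were highest in HR+ LP and lowest in HR- LP, and Eif2ak2 was highest in ML and lowest in HR+ LP, with the highest mean 1.07 to 1.3 times the lowest. Counting all 3 comparisons, 24 members were called by edgeR in at least 1 comparison and 16 in none.

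**Figure D1:**
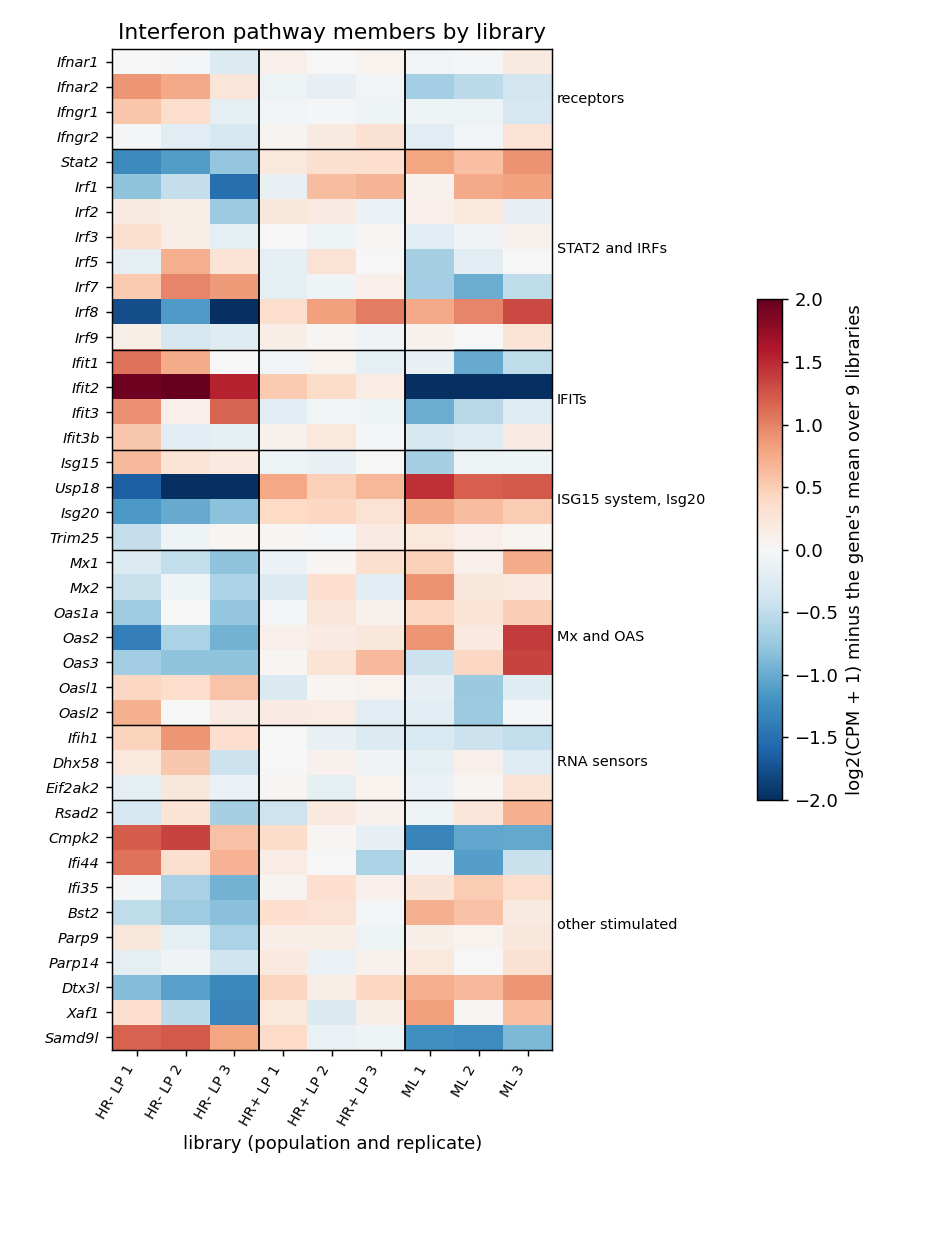
Each row is 1 of the 40 members and each column 1 of the 9 libraries. Colour gives log2(CPM + 1) minus that gene's mean over the 9 libraries, and values beyond -2 or 2 take the end colour. Rows such as Stat2, Usp18 and Dtx3l run from low in HR- LP to high in ML, and rows such as Ifit2, Cmpk2 and Samd9l run the other way.

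Promoter sequences show that members moving in opposite directions can hold the same element. RefSeq windows from 250 bases before to 50 bases after a transcript start (build GRCm38.p6) were found for 33 of the 40 members. A gene may have more than 1 window, and a window's start may lie inside the gene as RefSeq bounds it. They were searched on both strands for GAAA, any 2 bases and GAAA, the core of the interferon-stimulated response element, which reads TTTC, 2 bases and TTTC on the other strand. It was present in 12 of the 33 members with a window (36.4%) and in 1079 of the 27025 genes with a window (3.99%). Among members higher in ML than in HR- LP, 4 of the 9 with a window held it, and among members lower in ML 4 of 10. The stretches below, 60 bases long and all upstream of the gene as RefSeq bounds it and outside exons annotated in GENCODE M21, show 3 members that were higher in ML and 2 that were lower, with the matches in capitals. A match is a run of letters, not a shown binding site.
Higher in ML, Stat2, chr10:128270251-128270310 (+ strand): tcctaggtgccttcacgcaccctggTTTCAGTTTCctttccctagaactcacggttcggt
Higher in ML, Bst2, chr8:71537568-71537627 (- strand): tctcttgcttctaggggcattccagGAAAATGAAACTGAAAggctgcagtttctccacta
Higher in ML, Oas3, chr5:120777700-120777759 (- strand): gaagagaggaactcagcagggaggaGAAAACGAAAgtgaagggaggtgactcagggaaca
Lower in ML, Ifit1, chr19:34640760-34640819 (+ strand): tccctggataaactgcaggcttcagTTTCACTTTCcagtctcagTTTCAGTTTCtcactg
Lower in ML, Isg15, chr4:156200862-156200921 (- strand): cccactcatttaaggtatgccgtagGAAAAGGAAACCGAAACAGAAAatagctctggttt
The first match begins 222 bases before the window's transcript start in Stat2, 130 in Bst2, 75 in Oas3, 104 in Ifit1 and 78 in Isg15. Bst2 and Isg15 hold overlapping matches, and Ifit1 holds 2 separate ones. The calls of Ifit1 and Isg15 as lower in ML were each lost in some of the other fits described below, that of Isg15 in most. The core of the gamma-activated site, TTCNNNGAA, was in 11 of the 33 members with a window (33.3%) against 9.55% of all genes with a window. Of the 9 members higher in ML with a window, 6 held it (Irf1, Irf8, Isg20, Oas1a, Ifi35 and Bst2). Of the 10 lower, 2 held it (Ifnar2 and Ifit2). Irf1, Irf8, Isg20 and Ifit2 had more than 1 window, so the sequence searched was not equal between genes. No window came with Usp18, Mx1, Mx2, Oas2, Dhx58, Parp9 or Parp14.

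Of the 4 receptor chains, edgeR called Ifnar2 alone over all 9 libraries, and it was lower in HR+ LP and in ML than in HR- LP. Ifnar2 (GeneID 15976, mm10 chr16:91372783-91405589) encodes the type I receptor chain with the long signalling tail. Its levels were 75.6, 69.3 and 48.3 CPM in the HR- LP libraries, 37.9, 36.1 and 39.2 in HR+ LP and 25.1, 28.1 and 31.5 in ML. Every library of the first group lay above every library of the others, and HR+ LP lay above ML. The log2 difference was -0.77 ± 0.17 (SE; edgeR adjusted p = 0.00686, n = 3 libraries a group) between HR+ LP and HR- LP and -1.19 ± 0.18 (adjusted p = 0.000238) between ML and HR- LP. It was -0.42 ± 0.17 (adjusted p = 0.299) between ML and HR+ LP, which did not pass.

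Ifnar1, the partner chain 79649 bases away on the same strand, was at 48.9, 47.1 and 40.04 CPM in HR- LP, 52.3, 48.4 and 51.2 in HR+ LP and 46.5, 47.9 and 55.2 in ML. Its groups overlapped, and its log2 difference between ML and HR- LP was 0.14 ± 0.13 (edgeR adjusted p = 0.439). Ifngr1, the ligand-binding chain for interferon-gamma, was at 56.5, 49.4 and 33.3 CPM in HR- LP, 36.9, 37.4 and 35.95 in HR+ LP and 35.7, 35.7 and 29.97 in ML. Its spread was widest in HR- LP, and the log2 difference between ML and HR- LP was -0.46 ± 0.19 (adjusted p = 0.0653). It was called lower in ML with DESeq2 (0.04), limma voom (0.05 after rounding), a filter at 1 CPM (0.0456) and the replicate number as a block (0.0388). Without HR- LP replicate 3, its lowest library of that group, edgeR called it lower in ML (0.00353) and in HR+ LP (0.0172). Ifngr2, the signalling chain of that receptor, was at 24.1, 21.2 and 19.6 CPM in HR- LP, 25.7, 28.1 and 30.5 in HR+ LP and 21.2, 23.6 and 30.4 in ML. HR+ LP lay above HR- LP in all 3 libraries, but the log2 difference of 0.38 ± 0.17 did not pass (adjusted p = 0.123). A gene model annotated over part of Ifnar2 on the same strand, Gm21970, shares 9.46% of its exonic bases, so some of its reads could belong to either.

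Among the transcription factors, Stat2, Irf1 and Irf8 were higher and Irf7 was lower in HR+ LP than in HR- LP, and the same 4 were called between ML and HR- LP. Stat2 (GeneID 20847, mm10 chr10:128270498-128292853) encodes the subunit that gives the type I complex its activation domain. It was at 26.4, 29.6 and 37.9 CPM in HR- LP, 75.4, 81.5 and 82.5 in HR+ LP and 114, 100 and 122 in ML, with no overlap between any groups. The log2 difference was 1.35 ± 0.15 (edgeR adjusted p = 0.000101) between HR+ LP and HR- LP and 1.84 ± 0.16 (adjusted p = 3.68e-06) between ML and HR- LP. Between ML and HR+ LP it was 0.49 ± 0.15 (adjusted p = 0.102). With the replicate number as a block it was 0.49 (adjusted p = 0.0428), past the threshold. It also passed with DESeq2 (0.0452), with only these groups in the fit (0.0166) and without HR- LP replicate 1 (0.0432) or 3 (0.0321).

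Irf7, the factor that amplifies type I interferon transcription, ran the other way. It was at 24.3, 33.5 and 30.7 CPM in HR- LP, 14.5, 15.5 and 17.9 in HR+ LP and 10.02, 7.83 and 11.3 in ML, again with no overlap. Its log2 difference was -0.88 ± 0.19 (edgeR adjusted p = 0.00608) in HR+ LP and -1.60 ± 0.20 (adjusted p = 6.70e-05) in ML, each against HR- LP. Between ML and HR+ LP it was -0.72 ± 0.20 (adjusted p = 0.0558), and with the replicate block -0.72 (adjusted p = 0.0426). It also passed with DESeq2 (0.0267), with only these groups in the fit (0.0395) and without HR- LP replicate 1 (0.0322).

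Irf1, a factor with its own targets on similar elements, was at 59.5, 75.2 and 36.4 CPM in HR- LP, 94.3, 161 and 168 in HR+ LP and 111, 177 and 183 in ML. HR- LP lay below both other groups, which overlapped, and replicate 1 was the lowest in each of those. The log2 difference was 1.31 ± 0.30 (edgeR adjusted p = 0.00773) in HR+ LP and 1.46 ± 0.30 (adjusted p = 0.00235) in ML against HR- LP. Irf8 is best known in myeloid and dendritic cells. It was at 0.464, 1.29 and 0 CPM in HR- LP, 5.42, 7.904 and 9.17 in HR+ LP and 7.503, 8.89 and 11.5 in ML. The library at 0 allows up to 0.107 CPM, the level of 3 counts. Irf8 differed by 3.54 ± 0.76 (adjusted p = 0.0052) and 3.86 ± 0.77 (adjusted p = 0.00187) on the log2 scale against HR- LP. Beside this, 8 of the 15 immune markers had enough reads to test. Itgam was the one called, with 0 counts in each HR- LP library, 52 to 98 in HR+ LP and 19 to 63 in ML. The median log2 difference of the 8 went the other way, at -1.007 in HR+ LP and -1.165 in ML against HR- LP. The part of immune cells in the Irf8 difference was not tested.

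The other 4 IRFs were not called in any comparison by edgeR over all 9 libraries. Irf9, the DNA-binding partner of STAT2, was at 59.1 ± 10.2 (SD, n = 3), 66.5 ± 4.96 and 71.2 ± 6.79 CPM. Without HR- LP replicate 1 it was called between ML and HR- LP (0.42, edgeR adjusted p = 0.0219). Irf3, which is activated by nucleic acid sensing, was at 62.4 ± 10.5, 57.1 ± 2.27 and 55.6 ± 5.88 CPM. Irf2, a competitor of IRF1 at many elements, was at 32.6 ± 10.4, 37.3 ± 4.79 and 36.2 ± 4.75 CPM. Their levels overlapped between all 3 populations. Irf5 was near the limit of detection, at 0.9804 ± 0.624, 0.644 ± 0.283 and 0.317 ± 0.297 CPM.

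**Figure D2:**
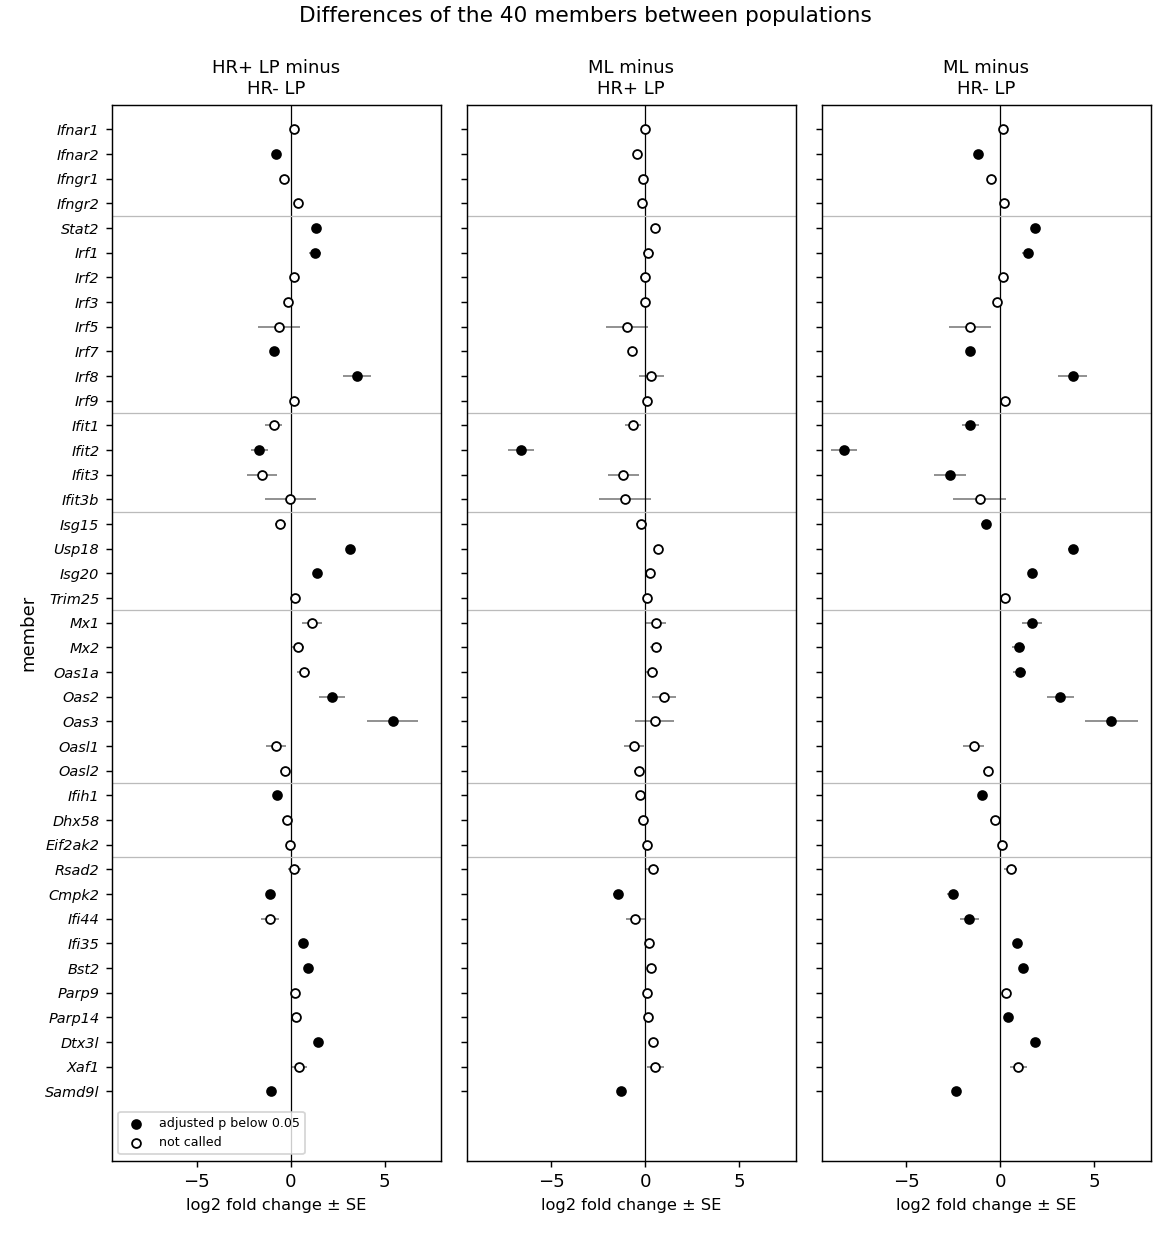
Log2 fold change of each member with its standard error in the 3 comparisons, 9 libraries in 1 edgeR fit, with filled points for adjusted p below 0.05. Filled points lie on both sides of 0 in the left and right panels, and the middle panel holds 3, all below 0.

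Ifit2 was lower in HR+ LP than in HR- LP and nearly absent from ML, and Ifit1 and Ifit3 were lower in ML than in HR- LP. IFIT proteins bind foreign RNA and block its translation, and the 4 genes lie together on chromosome 19. Ifit2 (GeneID 15958, mm10 chr19:34550550-34576534) was at 17.3, 18.4 and 12.8 CPM in HR- LP and 5.85, 5.17 and 4.305 in HR+ LP. In ML it had 0, 0 and 6 counts, or 0, 0 and 0.141 CPM, where 3 counts correspond to 0.1 and 0.0638 CPM in the 2 libraries at 0. The groups were far apart. Over summed counts scaled by library size, HR+ LP was 102-fold above ML (95% exact interval 46.8 to 279, counting error only) and HR- LP 342-fold above ML (157 to 932). Without ML replicate 3, which held all 6 counts, they were at least 132-fold and 440-fold, with a floor of 3 counts over the group. The fitted log2 differences were -1.66 ± 0.45 (edgeR adjusted p = 0.0165), -6.62 ± 0.67 (adjusted p = 5.79e-05) and -8.28 ± 0.69 (adjusted p = 3.02e-06) for HR+ LP against HR- LP, ML against HR+ LP and ML against HR- LP. The first did not pass without HR+ LP replicate 2 (adjusted p = 0.0654) or 3 (0.0674).

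By edgeR, Ifit1 and Ifit3 were called between ML and HR- LP and in neither other comparison. Ifit1 was at 7.75, 5.88 and 3.15 CPM in HR- LP, 2.96, 3.35 and 2.66 in HR+ LP and 2.71, 1.04 and 1.91 in ML, and fell by 1.58 ± 0.45 on the log2 scale from HR- LP to ML (edgeR adjusted p = 0.0142). The lowest HR- LP library lay within the range of HR+ LP but above ML. Limma voom also called Ifit1 lower in HR+ LP than in HR- LP (-0.95, adjusted p = 0.0399). Ifit3 was at 2.89, 1.198 and 3.61 CPM in HR- LP, 0.753, 0.9803 and 0.931 in HR+ LP and 0.0335, 0.404 and 0.7299 in ML, with a log2 difference of -2.69 ± 0.86 (adjusted p = 0.0251) between ML and HR- LP. Ifit3 shares 51.2% of its 50-base windows with other genes, chiefly its copy Ifit3b, so reads could be split between them. Ifit3b itself was at 0.336 ± 0.426, 0.335 ± 0.116 and 0.155 ± 0.215 CPM (SD, n = 3) and was not called. The Ifit1 call was lost without ML replicate 2 (adjusted p = 0.0535), and the Ifit3 call without that library (0.0722) or HR- LP replicate 3 (0.0617) and with only the groups compared in the fit (0.0567).

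The ISG15 system changed unevenly: the protease gene Usp18 was higher in HR+ LP and ML than in HR- LP, while the modifier gene Isg15 was lower in ML. USP18 removes ISG15 from proteins and also blocks signalling at IFNAR2. Usp18 (GeneID 24110, mm10 chr6:121245906-121270917) was at 2.06, 1.3 and 1.18 CPM in HR- LP, 15.1, 12.2 and 14.02 in HR+ LP and 25.1, 20.6 and 21.2 in ML. The 3 groups did not overlap, and the lowest HR+ LP library was several times the highest HR- LP library. The log2 difference was 3.18 ± 0.25 (edgeR adjusted p = 9.40e-06) in HR+ LP and 3.87 ± 0.26 (adjusted p = 6.56e-07) in ML against HR- LP. From HR+ LP to ML it was 0.70 ± 0.23 (adjusted p = 0.127), which DESeq2 (0.0273), limma voom (0.0402) a fit of only these groups (0.0165) and edgeR without HR- LP replicate 1 (0.0291) called.

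Isg15, the ubiquitin-like modifier, was at 9.97, 7.503 and 7.05 CPM in HR- LP, 5.57, 5.35 and 5.97 in HR+ LP and 3.45, 5.57 and 5.604 in ML. HR- LP lay above both other groups. The log2 difference between ML and HR- LP was -0.74 ± 0.27 (edgeR adjusted p = 0.047), but it passed in 3 of 16 alternative fits. It was lost on leaving out any 1 library except HR- LP replicate 3 (adjusted p 0.0562 to 0.152, highest without ML replicate 1). Isg20, an exonuclease that degrades viral RNA, was at 12.2, 13.6 and 15.7 CPM in HR- LP, 37.8, 38.1 and 35.1 in HR+ LP and 48.3, 44 and 40.99 in ML. Those groups did not overlap, with log2 differences of 1.42 ± 0.15 (adjusted p = 4.83e-05) and 1.69 ± 0.15 (adjusted p = 4.32e-06) against HR- LP. Trim25, a ubiquitin ligase that helps RIG-I signal, was not called, at 111 ± 20.3, 129 ± 9.44 and 135 ± 8.102 CPM (SD, n = 3). Scaled by library totals alone, it was called higher in ML than in HR- LP (edgeR adjusted p = 0.0264).

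**Figure D3:**
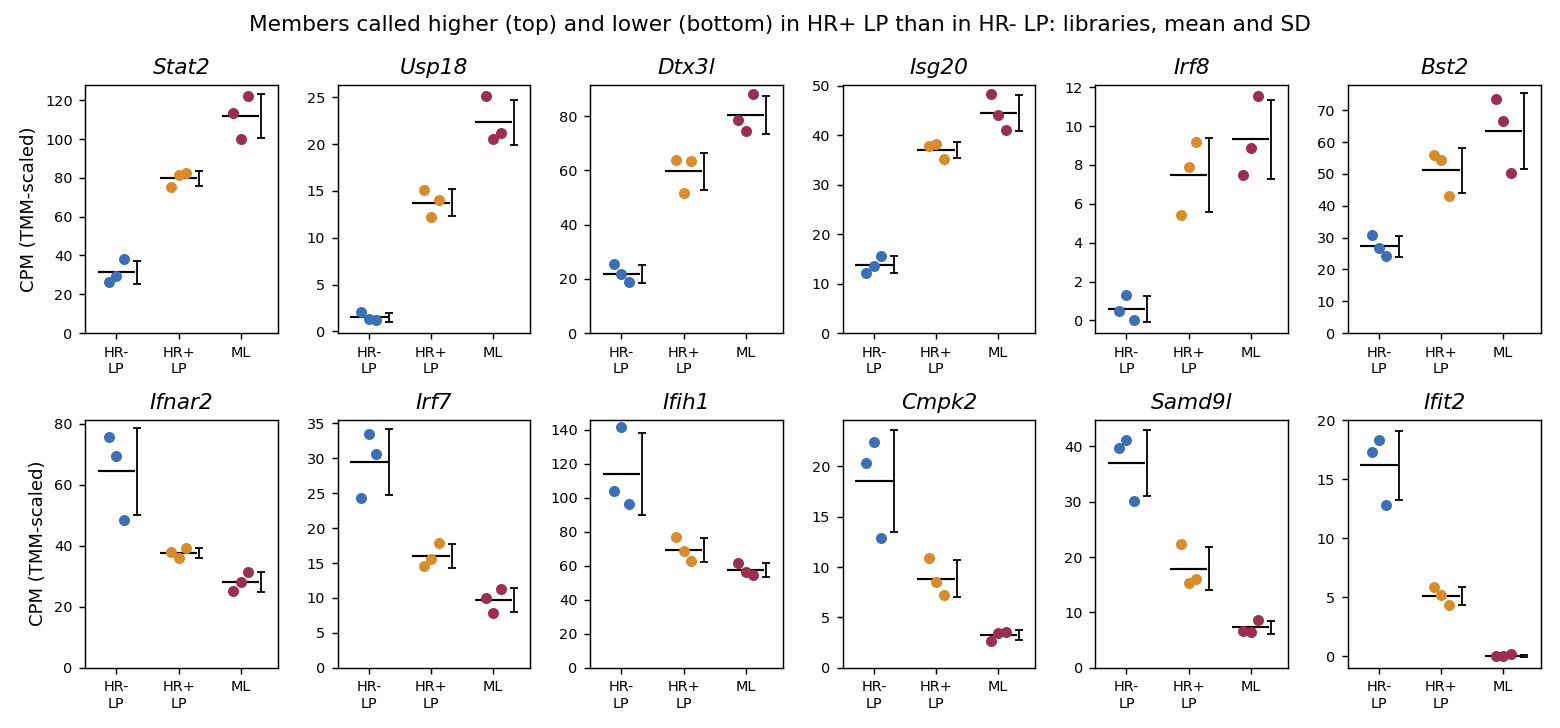
CPM of 12 members in each library, with the mean as a line and the SD as a bar beside it (n = 3 a group). Top, 6 members that were higher in HR+ LP than in HR- LP, such as Usp18 at 12.2 to 15.1 against 1.18 to 2.06 CPM, and bottom, 6 that were lower, such as Ifit2.

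The 5 Mx and OAS genes that edgeR called over all 9 libraries were higher in ML than in HR- LP. Of them, Oas2 and Oas3 were also higher in HR+ LP than in HR- LP. Mean levels of the 5 were 0.0269 to 8.01 CPM. MX proteins are GTPases that trap viral capsids, and OAS enzymes make the 2-5A signal that activates RNase L. Oas3 had 4, 0 and 0 counts in HR- LP, against 0.791, 1.12 and 1.73 CPM in HR+ LP and 0.301, 1.34 and 3.46 CPM in ML. The libraries at 0 allow up to 0.0307 and 0.107 CPM. Over summed counts, HR+ LP was 52.6-fold above HR- LP (95% exact interval 20.4 to 194, counting error only) and ML 80.4-fold above it (31 to 298). Without HR- LP replicate 1, which held all 4 counts, they were at least 50.3-fold and 76.9-fold. Its adjusted p was 0.0121 and 0.00502 (edgeR). Oas2, its neighbour 3245 bases away, was at 0.0807, 0.829 and 0.465 CPM in HR- LP, 2.03, 2.18 and 2.3 in HR+ LP and 4.22, 2.23 and 6.45 in ML. Its log2 difference was 2.21 ± 0.69 (adjusted p = 0.0334) in HR+ LP and 3.19 ± 0.72 (adjusted p = 0.00392) in ML. The first was lost with only these groups in the fit (0.0793) and without HR- LP replicate 3 (0.0624) or HR+ LP replicate 1 (0.0687), 2 (0.078) or 3 (0.0745).

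By edgeR over all 9 libraries, Oas1a, Mx1 and Mx2 were called between ML and HR- LP and in neither other comparison. Oas1a was at 2.32, 4.49 and 2.18 CPM in HR- LP, 4.37, 5.48 and 4.78 in HR+ LP and 6.297, 5.59 and 6.71 in ML, and its log2 difference was 1.04 ± 0.34 (edgeR adjusted p = 0.0268). The highest HR- LP library, replicate 2, reached into the HR+ LP range but stayed below ML, and without it Oas1a was also called higher in HR+ LP (1.11, adjusted p = 0.0187). Mx1, annotated in RefSeq as a transcribed pseudogene on this build, was at 1.01, 0.727 and 0.394 CPM in HR- LP, 1.24, 1.51 and 2.05 in HR+ LP and 2.38, 1.596 and 3.06 in ML, a difference of 1.71 ± 0.54 (adjusted p = 0.0252). Mx2 was at 3.75, 5.097 and 3.22 CPM in HR- LP, 4.34, 7.19 and 4.56 in HR+ LP and 11.02, 6.62 and 6.38 in ML, a difference of 0.98 ± 0.34 (adjusted p = 0.0337) in which ML replicate 1 stood highest. Each of these calls was lost in some fits. Oas1a was lost with only these groups in the fit (adjusted p = 0.0703), without HR- LP replicate 1 (0.0625) or 3 (0.0605) and without ML replicate 1 (0.0617), 2 (0.0541) or 3 (0.0791). Mx1 was lost with only these groups (0.0699), without HR- LP replicate 3 (0.0502) or ML replicate 1 (0.0569) or 3 (0.101). Mx2 was lost with limma voom (0.0757), with only these groups (0.0604) and without HR- LP replicate 1 (0.0668) or 3 (0.0778) or ML replicate 1 (0.153). Oas1a also shares 57.6% of its 50-base windows with other genes, chiefly Oas1g.

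The OAS-like genes had lower mean levels outside HR- LP, and whether they were called between ML and HR- LP turned on the test. Oasl1, a translational inhibitor of Irf7, was at 2.22 ± 0.258, 1.27 ± 0.304 and 0.833 ± 0.376 CPM (SD, n = 3), with an adjusted p of 0.0567 between ML and HR- LP (edgeR). Oasl2 was at 20.7 ± 5.85, 16.8 ± 2.603 and 13.1 ± 3.34 CPM, with an adjusted p of 0.0559. Both were called lower in ML with DESeq2 (0.0155 for Oasl1 and 0.0332 for Oasl2) and with a filter at 1 CPM (0.0414 and 0.0467). Limma voom called Oasl1 (0.0482). Oasl2 was also called with the replicate block (0.0465) and without HR- LP replicate 2 (0.0368) or ML replicate 3 (0.0441).

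Of the cytoplasmic RNA sensors, Ifih1 was lower in HR+ LP and ML, and Dhx58 and Eif2ak2 were not called. Ifih1 encodes MDA5, which detects long double-stranded RNA. It was at 104, 142 and 96.3 CPM in HR- LP, 77, 68.6 and 62.8 in HR+ LP and 61.9, 56.4 and 54.3 in ML. The groups did not overlap, and the log2 difference was -0.71 ± 0.16 (edgeR adjusted p = 0.00686) in HR+ LP and -0.99 ± 0.16 (adjusted p = 0.000506) in ML against HR- LP. Dhx58, which encodes the related helicase LGP2, was at 11.9 ± 4.09, 10.6 ± 0.619 and 9.76 ± 1.48 CPM (SD, n = 3). Eif2ak2, which encodes the kinase PKR, was at 45.5 ± 7.4, 45.3 ± 4.22 and 48.3 ± 6.84 CPM.

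Among the remaining stimulated genes, Cmpk2 and Samd9l were called in all 3 comparisons, highest in HR- LP and lowest in ML. CMPK2 is a mitochondrial nucleotide kinase. Cmpk2 (GeneID 22169, mm10 chr12:26469117-26479837) was at 20.4, 22.4 and 12.9 CPM in HR- LP, 10.9, 8.48 and 7.21 in HR+ LP and 2.65, 3.49 and 3.51 in ML. The 3 groups did not overlap, and the log2 differences were -1.07 ± 0.26 (edgeR adjusted p = 0.011), -1.46 ± 0.27 (adjusted p = 0.00553) and -2.53 ± 0.28 (adjusted p = 2.76e-05) for HR+ LP against HR- LP, ML against HR+ LP and ML against HR- LP. The first was lost without HR+ LP replicate 3 (0.0519) and the second with limma voom (0.0565). Samd9l, a restrictor of cell growth and of viral translation, was at 39.7, 41.1 and 30.1 CPM in HR- LP, 22.3, 15.3 and 15.96 in HR+ LP and 6.699, 6.47 and 8.66 in ML. Its groups did not overlap, and its differences in the same order were -1.05 ± 0.21 (adjusted p = 0.00343), -1.30 ± 0.21 (adjusted p = 0.00223) and -2.34 ± 0.22 (adjusted p = 7.24e-06). Ifi44, a cytoplasmic protein gene, was at 7.003, 3.67 and 5.08 CPM in HR- LP, 3.17, 2.77 and 1.44 in HR+ LP and 2.58, 0.745 and 1.77 in ML. It was called between ML and HR- LP (-1.64 ± 0.51, adjusted p = 0.0231), but not without HR- LP replicate 1 (0.0665) or ML replicate 2 (0.0719) or 3 (0.0599).

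Beside the members that were lower in HR+ LP and ML stand genes that tissue dissociation is known to induce, 12 of them, among them immediate early genes. Their summed level was 30220 to 49250 CPM in HR- LP, 26390 to 32350 in HR+ LP and 15230 to 22520 in ML. Of the 12, 6 (50%) were lower in HR+ LP and 7 (58.3%) lower in ML than in HR- LP (edgeR). Between ML and HR+ LP, 5 (41.7%) were lower in ML. Over all tested genes the shares lower were 12.8%, 21.3% and 6.7% in the same order. In each comparison 0 of the 12 were higher, and DESeq2, limma voom and an unadjusted p below 0.05 gave 0 as well. Of the members, 10 went the other way in HR+ LP and 14 in ML, being higher than in HR- LP. Fibroblast markers, 6 genes, summed to 73.7 to 121 CPM, 61.3 to 267.5 and 106 to 317.6. The median of the 6 was 10.5 to 17.4 CPM in HR- LP, 2.71 to 4.34 in HR+ LP and 5.17 to 8.12 in ML. By edgeR 5 were lower and 1 (Dcn) higher in HR+ LP than in HR- LP. Against HR- LP, 3 were lower and 1 (Dcn) higher in ML. The part of these differences in those of the members was not tested.

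Dtx3l, Bst2 and Ifi35 were higher in both HR+ LP and ML than in HR- LP, and Parp14 was higher in ML. DTX3L is a ubiquitin ligase that works as a complex with PARP9. Dtx3l (GeneID 209200, mm10 chr16:35926515-35939027) was at 25.3, 21.7 and 18.7 CPM in HR- LP, 63.8, 51.8 and 63.4 in HR+ LP and 78.5, 74.5 and 88.1 in ML. Its groups did not overlap, with log2 differences of 1.44 ± 0.15 (edgeR adjusted p = 6.40e-05) and 1.87 ± 0.16 (adjusted p = 3.18e-06) against HR- LP. Bst2 encodes tetherin, which holds budding virus at the cell surface. It was at 30.7, 26.8 and 24.3 CPM in HR- LP, 55.9, 54.5 and 42.96 in HR+ LP and 73.5, 66.6 and 50.3 in ML, with differences of 0.91 ± 0.18 (adjusted p = 0.00308) and 1.22 ± 0.18 (adjusted p = 0.000219). HR- LP lay below both other groups, which overlapped.

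Ifi35, a leucine zipper protein gene, was at 45.2, 29.01 and 23.4 CPM in HR- LP, 47.96, 58.7 and 49.4 in HR+ LP and 55.4, 65.7 and 59.1 in ML. HR- LP replicate 1 came near the HR+ LP libraries, and the other 2 lay well below. Its log2 difference was 0.88 ± 0.22 (edgeR adjusted p = 0.00666) in ML and 0.68 ± 0.22 (adjusted p = 0.0362) in HR+ LP. The HR+ LP call was lost with only these groups in the fit (0.0678) and without HR- LP replicate 2 (0.108) or 3 (0.0868), without any HR+ LP replicate (0.0638 to 0.132), and without ML replicate 2 (0.0572) or 3 (0.0528). An antisense gene model covers part of Ifi35, in which 16.79% of exonic bases overlap another gene, and the library kit does not mark strand. Parp14, a mono-ADP-ribosyltransferase gene, was at 49.9, 54.1 and 43.01 CPM in HR- LP, 65.4, 51.9 and 60.2 in HR+ LP and 65.8, 57.1 and 70.7 in ML. It was called between ML and HR- LP (0.40 ± 0.15, adjusted p = 0.0475), and in 5 of 16 alternative fits. It was lost on leaving out any 1 library except HR- LP replicate 2 (0.0567 to 0.163, highest without ML replicate 3).

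The last 3 stimulated genes were not called by edgeR over all 9 libraries. Parp9 was at 57.2 ± 16.9, 66.4 ± 5.88 and 70.4 ± 4.02 CPM (SD, n = 3). Without HR- LP replicate 1 it was called higher in HR+ LP (adjusted p = 0.0497) and in ML (0.0188) than in HR- LP. Rsad2, which encodes viperin, was at 5.89 ± 2.36, 6.74 ± 1.64 and 8.796 ± 2.77 CPM. Xaf1, an antagonist of the apoptosis inhibitor XIAP, was at 5.42 ± 3.57, 7.38 ± 1.499 and 10.7 ± 3.08 CPM, with an adjusted p of 0.0942 between ML and HR- LP (edgeR). It was called higher in ML with the replicate block (0.04) and without HR- LP replicate 1 (0.00696).

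Some members related in function or position stood in different proportions in the populations. Within each library, levels were divided by gene length (CPM per kilobase) before taking ratios, and 8 related pairs were computed. The pairs were chosen after the members' values were seen, so the ratios are a description, and 3 libraries against 3 cannot go below an exact permutation p of 0.10 in any case. The ratio of Dtx3l to Parp9 was 0.271 ± 0.0408 (SD, n = 3) in HR- LP, 0.624 ± 0.11 in HR+ LP and 0.785 ± 0.023 in ML. These 2 genes lie on opposite strands and share 458 exonic bases, so a part of the reads could be counted for either or neither. The ratio of Stat2 to Irf9, whose proteins work in 1 complex, was 0.334 ± 0.0982, 0.738 ± 0.0877 and 0.962 ± 0.0409. The ratio of Usp18 to Isg15, the protease and the modifier it removes, was 0.0779 ± 0.00896, 1.04 ± 0.101 and 2.1 ± 0.873.

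The receptor ratio of Ifnar2 to Ifnar1 was 3.11 ± 0.393 in HR- LP, 1.65 ± 0.0465 in HR+ LP and 1.25 ± 0.0546 in ML. Cmpk2 and Rsad2 are neighbours 12752 bases apart on opposite strands of chromosome 12 and are often induced together. Their ratio was 3.88 ± 0.747, 1.69 ± 0.826 and 0.45 ± 0.0835. In these 5 pairs the libraries of the 3 populations did not overlap. Each holds at least 1 member called by itself, so a ratio can repeat that call. How many other gene pairs separate in this way was not computed. In the other 3 pairs (Ifngr2 to Ifngr1, Ifit2 to Ifit3 and Oas3 to Oas2) at least 2 of the populations overlapped.

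**Figure D4:**
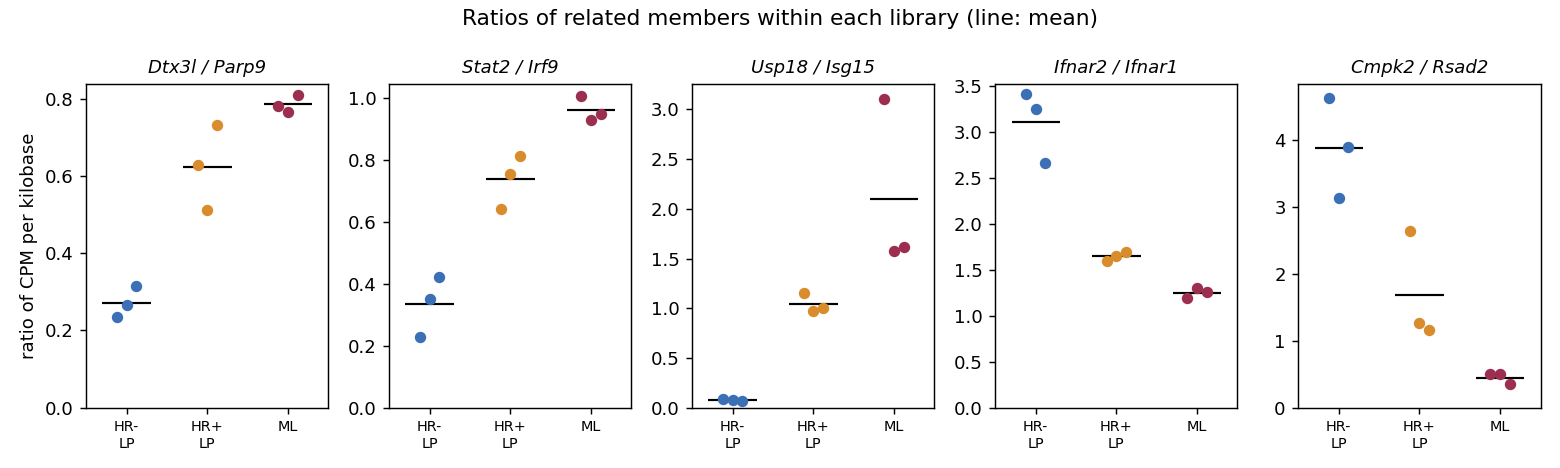
Ratio of CPM per kilobase between related members in each library, with the mean as a line (n = 3 a group). The ratio of Dtx3l to Parp9, Stat2 to Irf9 and Usp18 to Isg15 was lowest in HR- LP and highest in ML, and that of Ifnar2 to Ifnar1 and Cmpk2 to Rsad2 the reverse, with no overlap between groups.

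On the per-length scale, Bst2 was the most abundant member in all 3 populations, at 35.4 CPM per kilobase in HR- LP, 66.5 in HR+ LP and 82.5 in ML. Irf3 (28.5) and Ifi35 (23.9) came next in HR- LP. Irf1 and Ifi35 came next in the others, at 42.0 and 38.3 in HR+ LP and 46.8 and 44.2 in ML. The median member was at 6.54, 7.33 and 5.84 CPM per kilobase, and 7, 8 and 9 members lay below 1. The lowest were Oas3 in HR- LP (0.0057), Ifit3b in HR+ LP (0.166) and Ifit2 in ML (0.0119).

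The members also differed between libraries of 1 population. HR- LP replicate 3 was the lowest of its group for 26 of the 40 members, against 38.7% of all tested genes. ML replicate 3 was the highest of its group for 26 of the 40, against 33.5%. The median coefficient of variation of the members was 26.4%, 11.5% and 17.4% in HR- LP, HR+ LP and ML, against 26.4%, 14.2% and 15.3% over all tested genes. Without HR- LP replicate 3, 8 members were higher and 7 lower in HR+ LP than in HR- LP, and 10 were higher and 10 lower in ML than in HR- LP.

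The wider interferon pathway was read from 74 further genes, of which 64 had enough reads to test. Between HR+ LP and HR- LP 14 were higher and 8 lower, between ML and HR+ LP 0 were higher (4 at an unadjusted p below 0.05, 1 by DESeq2 and 0 by limma voom) and 3 lower, and between ML and HR- LP 18 were higher and 13 lower. That is 34.4%, 4.69% and 48.4% called, near the shares over all genes. Transcripts of the interferons themselves were mostly not detectable at this depth: 0 of 10 ligand genes had enough reads to test, and Ifnb1, Ifna1, Ifna4, Ifna5 and Ifng had 0 counts in all 9 libraries. The most counts were 68 for Ifnl3 in HR- LP replicate 2.

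Of 13 further receptor and kinase genes, Jak2, a kinase of the interferon-gamma receptor, was higher and Irf2bp2, a corepressor that binds IRF2, was lower in HR+ LP than in HR- LP. That is 15.4% called, against 29.9% of all tested genes. Jak2 was at 79.1 ± 20.2 CPM (SD, n = 3) in HR- LP, 184 ± 18.6 in HR+ LP and 229 ± 45.97 in ML, a log2 difference of 1.22 ± 0.21 (edgeR adjusted p = 0.00148) in HR+ LP against HR- LP. Irf2bp2 was at 364 ± 26.5, 172 ± 27.5 and 82.9 ± 12.4 CPM, lower in HR+ LP than in HR- LP (-1.09 ± 0.16, adjusted p = 0.000532) and in ML than in HR+ LP (-1.05 ± 0.16, adjusted p = 0.00129). Of 10 sensing genes 3 were higher and 1 lower in HR+ LP than in HR- LP (40% called, against 29.9% of all tested genes). Among the higher was Traf3, an adaptor of antiviral signalling, at 34.9 ± 0.932, 62.8 ± 1.06 and 68.2 ± 5.08 CPM (log2 difference 0.85 ± 0.12, edgeR adjusted p = 0.000343).

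Among 41 further stimulated genes 10 were higher and 6 lower in HR+ LP than in HR- LP, 2 lower in ML than in HR+ LP, and 12 higher and 10 lower in ML than in HR- LP. That is 39%, 4.88% and 53.7% called, against 29.9%, 6.79% and 44.6% of all tested genes. Iigp1, an immunity-related GTPase, had the smallest p among the higher genes: 10.9, 9.703 and 11.6 CPM in HR- LP, 135, 206 and 172 in HR+ LP and 189, 312 and 273 in ML. HR- LP lay far below both other groups, with log2 differences of 4.0 ± 0.23 (edgeR adjusted p = 1.71e-06) and 4.59 ± 0.24 (adjusted p = 1.26e-07). Nlrc5, the activator of MHC class I genes, was at 3.33 ± 1.37, 14.3 ± 1.77 and 21.9 ± 5.66 CPM (adjusted p = 0.000427 in HR+ LP). Lgals9, which encodes galectin-9, was at 17.2 ± 1.65, 29.8 ± 2.69 and 38.1 ± 1.65 CPM (adjusted p = 6.37e-05 in ML against HR- LP).

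Ifi30, a lysosomal thiol reductase gene, was at 109 ± 2.74, 52.2 ± 6.85 and 28.6 ± 1.36 CPM (SD, n = 3), with adjusted p = 0.000156 in HR+ LP against HR- LP and 0.00112 in ML against HR+ LP (edgeR). Samhd1, which depletes nucleotides, was at 265 ± 29.4, 152 ± 12.5 and 108 ± 5.19 CPM (adjusted p = 0.00104 and 0.0459). Ifi27, a mitochondrial membrane protein gene, was at 102 ± 27.4, 60 ± 1.13 and 50.2 ± 3.98 CPM (adjusted p = 0.00066 in ML against HR- LP). Its relative Ifi27l2a was at 2.87 ± 0.479, 0.388 ± 0.148 and 0.359 ± 0.0771 CPM (adjusted p = 0.00379 in HR+ LP against HR- LP).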

How the data were processed

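Total RNA from sorted luminal cells (miRNeasy, DNase, at least 50 ng) was made into TruSeq RNA v2 libraries, a kit that does not mark strand, per the labels' protocols. The authors deposited raw counts per NCBI gene, counted with featureCounts against mm10, per the submitters' processing notes; the aligner, annotation and treatment of multi-mapped reads are not given in the sources used here. The deposited table also holds gene lengths, used for CPM per kilobase. Symbols were matched for 25275 of 27179 genes (93.0%), and coordinates are RefSeq's on GRCm38.p6.

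Counts were filtered with filterByExpr, scaled by TMM and fitted with edgeR 4.0.16 (R 4.3.3) by group over all 9 libraries, 3 a group. Glm quasi-likelihood F-tests were adjusted by Benjamini-Hochberg over 15910 genes and called at 0.05. A standard error is the log2 fold change divided by the square root of F. DESeq2 1.42.0, limma voom (limma 3.58.1), library totals alone, other filters, the replicate number as a block, only the groups compared, and leaving out each library were 16 alternatives. In simulated data (15468 genes), 100 genes were raised 2-fold and 100 raised 4-fold in HR+ LP alone, with all others equal between groups. The test called 45 and 69 of them between HR+ LP and HR- LP, with 4 false calls. Between ML and HR+ LP it called 48 and 67, with 7 false calls. A larger part of genes was called in the data (29.9% and 6.79% in these comparisons), so the simulated rates do not give the test's power there. Replicate numbers come from the sample titles. ML and HR+ LP libraries of the same number deviated together (correlations across genes of 0.183, 0.121 and 0.189, each over 0.1), so the blocked value stands beside that comparison where it changed a call.

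The members and gene lists were chosen with earlier results of these data known. Values per library are given for each member called in at least 1 comparison and for the 4 receptor chains, the other members by mean or count, and of the other pathway genes up to 4 called per comparison and direction with the smallest p. Itgam, Siglech and the interferon genes are named beyond that rule, with values seen. Sequence shared between genes was counted in windows of 50 bases over GENCODE M21 transcripts.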

Additional observations from a re-analysis of the deposited data

How the results depend on the processing

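Of the 43 calls on members, 30 held in all 16 alternatives and 13 were lost in at least 1, 4 of these only on leaving out a library; 0 changed direction. Genes higher in ML than in HR+ LP numbered 15, against 88 with DESeq2, 50 with limma voom, 30 with library totals alone, 216 with only the groups compared, and 4 to 63 on leaving out 1 library. Members higher in that comparison numbered 0, against 2 with DESeq2, 1 with limma voom, 2 with only the groups compared, and 0 to 2 on leaving out 1 library. Genes lower in HR+ LP than in HR- LP numbered 2033, against 1211 to 2290 on leaving out 1 library (lowest without HR+ LP replicate 2), and members lower in ML than in HR- LP 10, against 6 to 10. With the replicate block, 71 genes and 1 member were higher in ML than in HR+ LP. Against HR- LP the same-number correlations were 0.039 to 0.147 for HR+ LP and 0.025 to 0.085 for ML, so the numbers were not read as pairs there, although each library correlated best with its own number, a hint from the data and not from the design. With the block, members called were 10 higher and 6 lower in HR+ LP, and 15 higher and 11 lower in ML, where Isg15 was lost (adjusted p = 0.0582) and Ifngr1 (0.0388), Oasl2 (0.0465) and Xaf1 (0.04) were gained. Library totals alone moved the median log2 difference of all genes by 0.11 in HR+ LP and 0.16 in ML against HR- LP, and the members' calls given above are relative to TMM. Depth limits the levels of Irf8, Ifit2 and Oas3 in libraries at 0 counts to the floors given above. The cause of these differences between settings was not tested.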
